A study of Homo sapiens with 9 samples.

Results

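HLA class I antigen presentation genes were followed in 9 RNA-seq libraries of HCT116, a human cell line established from a colon carcinoma. The set was given as a list of 9 genes of the pathway, and all 9 were found by Ensembl identifier among the 58395 genes of each deposited table: the class I heavy chains HLA-B, HLA-C and HLA-E, the light chain B2M, the peptide transporter subunits TAP1 and TAP2, tapasin (TAPBP), and the immunoproteasome subunits PSMB8 and PSMB9. Further class I heavy chain genes and pseudogenes were read only as named below. Every library came from cells that carried a short hairpin RNA against STBD1, a glycogen-binding protein implicated in the delivery of glycogen to autophagy. Onto this background the cells received the plvx neo vector alone, hairpin-resistant STBD1 WT, or hairpin-resistant STBD1 W203C, whose name gives its tryptophan-to-cysteine change. Each of the 3 groups has 3 replicate libraries. The lines were made by lentiviral infection and drug selection. Whether each was a pool or a clone is not given in the sources used here. The replicates are known only by number, so p-values measure the spread between these libraries, which may be technical.

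A class I molecule is a heavy chain bound to beta-2 microglobulin and a short peptide, and it shows samples of the proteins made inside a cell to T cells and natural killer cells. The peptides are cut by the proteasome, in which inducible catalytic subunits can replace constitutive ones, are pumped into the endoplasmic reticulum by the TAP transporter, and are loaded onto empty heavy chains with the help of tapasin and chaperones. Most of these genes respond to interferons and to NF-kB. They do so through promoter elements that bind NF-kB, interferon regulatory factors and the enhanceosome that recruits NLRC5. Colon carcinoma cells often show altered class I expression.

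Of the 9 genes, 8 lie in the major histocompatibility complex on chromosome 6 (hg38, 30489509 to 33314284), and B2M lies on chromosome 15 (44711358 to 44718851, forward strand). TAP2, PSMB8, TAP1 and PSMB9 sit side by side within 0.038 megabases of that complex (32821833 to 32859851), with PSMB9 on the forward strand and the other three on the reverse strand. HLA-E (30489509 to 30494194) is on the forward strand, while HLA-C (31268749 to 31272130), HLA-B (31353872 to 31367067) and TAPBP (33299694 to 33314284) are on the reverse strand.

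To let the letters be read beside the expression values, the promoters of 5 genes are printed. Of these, 4 rose in the STBD1 WT libraries and have matches to NF-kB or interferon-type motifs. The other, PSMB9, rose most and has neither in its window. The windows come from RefSeq (GRCh38.p14), span 250 bases before to 50 bases after the annotated start, and are written 5′ to 3′ on the strand of the gene. Capitals mark matches, on either strand, to the degenerate consensus of NF-kB, to an interferon-type GAAA repeat (GAAA, any 2 bases, GAAA, of the kind bound by interferon regulatory factors), to TGACGC (the core of the X2 element of class I promoters) and to CCAAT. Where matches overlap, they run together.
TAPBP (chr6:33314029-33314328, reverse strand): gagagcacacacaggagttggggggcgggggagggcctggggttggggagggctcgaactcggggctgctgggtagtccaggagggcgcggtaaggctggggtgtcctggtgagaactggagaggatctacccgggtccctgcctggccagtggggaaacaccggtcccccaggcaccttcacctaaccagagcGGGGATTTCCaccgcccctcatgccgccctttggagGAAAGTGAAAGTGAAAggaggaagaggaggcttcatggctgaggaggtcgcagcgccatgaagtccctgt
PSMB9 (chr6:32853942-32854241, forward strand): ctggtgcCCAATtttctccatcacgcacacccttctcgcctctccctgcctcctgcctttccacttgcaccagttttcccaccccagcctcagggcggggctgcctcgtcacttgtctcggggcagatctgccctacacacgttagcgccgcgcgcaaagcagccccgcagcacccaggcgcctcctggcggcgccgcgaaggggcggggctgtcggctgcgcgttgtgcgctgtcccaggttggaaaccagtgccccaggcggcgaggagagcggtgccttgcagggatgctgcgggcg
TAP1 (chr6:32853655-32853954, reverse strand): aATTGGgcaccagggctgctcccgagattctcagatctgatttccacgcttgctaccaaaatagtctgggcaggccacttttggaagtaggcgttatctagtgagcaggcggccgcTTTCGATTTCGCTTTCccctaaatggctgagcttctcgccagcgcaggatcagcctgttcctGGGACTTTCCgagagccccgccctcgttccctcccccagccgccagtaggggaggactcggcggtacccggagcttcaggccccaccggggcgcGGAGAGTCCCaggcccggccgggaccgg
B2M (chr15:44711267-44711566, forward strand): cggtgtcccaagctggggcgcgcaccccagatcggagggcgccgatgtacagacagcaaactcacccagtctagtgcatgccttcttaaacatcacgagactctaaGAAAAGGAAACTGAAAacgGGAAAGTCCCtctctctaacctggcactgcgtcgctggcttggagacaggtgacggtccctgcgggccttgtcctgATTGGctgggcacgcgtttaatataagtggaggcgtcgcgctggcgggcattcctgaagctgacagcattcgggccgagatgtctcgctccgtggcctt
HLA-B (chr6:31357130-31357429, reverse strand): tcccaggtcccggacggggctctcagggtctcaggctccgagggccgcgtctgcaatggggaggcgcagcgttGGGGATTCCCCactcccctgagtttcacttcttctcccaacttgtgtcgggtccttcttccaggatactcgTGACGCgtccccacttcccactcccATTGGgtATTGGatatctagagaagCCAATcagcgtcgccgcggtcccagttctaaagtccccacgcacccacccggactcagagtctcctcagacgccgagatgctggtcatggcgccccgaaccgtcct

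The RefSeq table held windows for 8 of the 9 genes, all but HLA-E, and 10 windows in all, since TAP1 and PSMB8 have 2 starts each. An NF-kB match occurred in 5 of the 10 windows (HLA-B, HLA-C, B2M, TAP1 and TAPBP), against 11.3% of all 35116 promoter windows of the same length. The GAAA repeat occurred in 5 windows (B2M, TAP1, TAP2, TAPBP and PSMB8), against 3.57% of all windows. TGACGC occurred in 3 windows (HLA-B, HLA-C and TAP2), against 9.14%, and CCAAT in 5, against 34.6%. The second windows of TAP1 and PSMB8 held no match, and the TAP1 window printed is the one with matches. In TAPBP the NF-kB match begins at base -56 from the start and a pair of overlapping GAAA repeat matches begins at -20 and -14. In TAP1 and PSMB9, which are transcribed away from each other, the windows share an edge and hence a CCAAT match. The single match of the PSMB9 window is this one. The TAP1 matches to NF-kB at -72 and to the GAAA repeat at -134 and -128 lie between the starts of both windows. They fall outside the PSMB9 window. A match describes the letters of these windows and says nothing of binding in these cells.

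The libraries held between 16.9 and 23.3 M expected counts (M, mega). Epithelial markers were abundant in all of them, since all 5 (EPCAM, CDH1, KRT8, KRT18 and KRT19) reached 1 TPM and their sum lay between 3168 and 3889 TPM (transcripts scaled to 1 M per library, a level per length). Of the leukocyte markers PTPRC, CD3E, CD14 and LAPTM5, which mark cells rich in class I genes, 0 of 4 reached 1 TPM, and their summed level was 0.11 to 0.45 TPM for plvx neo, 0.16 to 0.33 TPM with STBD1 WT and 0.45 to 0.69 TPM for STBD1 W203C. Among the endothelial markers 0 of 3 reached 1 TPM, and among the fibroblast markers only COL1A1 did (12.6 to 21.7 TPM in the summed list). COL1A1 was higher in STBD1 WT than in plvx neo (log2 fold change 0.48 ± 0.06, adjusted p = 9.11e-06, edgeR) and lower with STBD1 W203C than with STBD1 WT (-0.49 ± 0.06, adjusted p = 9.07e-06), with -0.01 ± 0.07 between STBD1 W203C and plvx neo (adjusted p = 0.951). All 5 epithelial markers were called in STBD1 WT vs plvx neo, KRT19 (0.43) and CDH1 (0.27) higher and KRT8 (-0.43), KRT18 (-0.44) and EPCAM (-0.11) lower. Between the constructs EPCAM (0.14) was higher and KRT19 (-0.40) and CDH1 (-0.27) were lower, while KRT8 (-0.41) and KRT18 (-0.44) were lower in STBD1 W203C than in plvx neo. The part of these markers in the class I results was not tested. STBD1 itself was at 2.75, 3.84 and 3.21 TPM in the plvx neo libraries. It was at 10.8, 10.8 and 10.9 TPM in the libraries labelled STBD1 WT and at 8.75, 8.37 and 10.3 TPM in those labelled STBD1 W203C. The read-through gene FAM47E-STBD1, which shares its sequence, was at 0.96 to 2.41, 41.5 to 46.1 and 34.7 to 38.4 TPM. Both constructs were therefore present in their libraries, at levels that did not overlap, and gene-level counts cannot tell the constructs apart. The names of the deposited tables, and a list of values per library issued with the study, exchange the names STBD1 WT and STBD1 W203C relative to the sample titles. The titles are followed here. If they were exchanged, every direction between the constructs would turn around and the comparisons of each with plvx neo would swap.

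The level per length set the genes far apart. Over the 9 libraries B2M had the highest level, from 543 to 855 TPM, followed by HLA-B (280 to 458 TPM), HLA-C (224 to 281 TPM) and HLA-E (71.5 to 94.96 TPM). TAP2 (30.7 to 43.1 TPM), TAP1 (25.1 to 40.7 TPM) and TAPBP (17.4 to 39.1 TPM) formed a lower tier in which the ranges overlapped, so that their order is not fixed. PSMB9 was lower still, at 4.57 to 16.2 TPM, and PSMB8 was near the limit of detection, at 0 to 0.87 TPM, which is 0 to 16 expected counts per library. The ranges of HLA-B and HLA-C met only where the highest library of HLA-C reached the lowest of HLA-B, and the ranges of B2M, HLA-E, PSMB9 and PSMB8 met those of no other gene of the set. The place of HLA-B above HLA-C rests on the transcript lengths that RSEM assigned, 516 to 594 bases for HLA-B and 1480 to 1505 bases for HLA-C, since HLA-C had more counts in every library. As a whole the 9 genes summed to 1246 ± 21.8 TPM for plvx neo, 1759 ± 53.1 TPM with STBD1 WT and 1424 ± 18.0 TPM for STBD1 W203C (mean ± SD, n = 3 each).

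**Figure D1:**
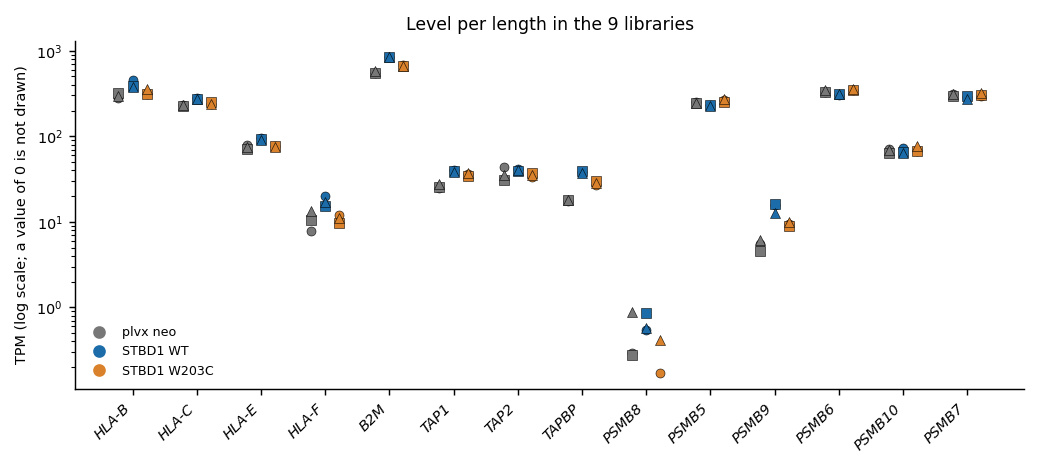
Level per length (TPM, log scale) of the class I heavy chains, B2M, TAP1, TAP2, TAPBP and each inducible proteasome subunit beside the constitutive subunit it replaces, with 1 point per library, colours for the groups as labelled and circles, squares and triangles for replicates 1, 2 and 3. B2M sits between 543 and 855 TPM and PSMB8 at or below 0.87 TPM, with 1 library of PSMB8 at 0 not drawn.

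To ask whether restoring STBD1 moves the pathway, STBD1 WT was compared with plvx neo. To ask whether the mutation alters this, STBD1 W203C was compared with STBD1 WT, and it was also set against plvx neo. Genes were tested on counts with the quasi-likelihood test of edgeR and called changed at a Benjamini-Hochberg adjusted p below 0.05 over all genes tested. With STBD1 WT vs plvx neo, 7 of all 9 genes were higher and 0 lower, where 13.9% of the 15289 genes tested were higher and 13.9% were lower. Between the constructs (STBD1 W203C vs STBD1 WT), from 8 genes tested 0 were higher and 7 lower, where 14.5% of 15052 genes were higher and 13.4% lower. Against the vector, in STBD1 W203C vs plvx neo, 5 of 8 were higher and 0 lower, where 3.03% of 15081 genes were higher and 2.67% lower. The set was chosen with earlier results of these data known. The shares over all genes therefore describe the background, and whether the counts exceed them was not tested. The median log2 fold change of the genes of the set was 0.39, -0.34 and 0.20 in these comparisons, beside 0.0061, -0.0078 and -0.0031 over all genes tested. On TPM with limma-trend the calls between the constructs over all genes leaned upwards, with 69.8% of 1779 changed genes higher in STBD1 W203C against 51.8% of 4202 on counts, and so did those of STBD1 W203C vs plvx neo (72.9% of 118 against 53.2% of 859). The fragment length implied by the effective lengths of the tables was 243 ± 3.76 bases for plvx neo, 257 ± 6.49 with STBD1 WT and 249.7 ± 6.24 for STBD1 W203C (SD, n = 3), and its part in the fold changes was not tested. In bulk RNA, fewer cells that express a gene and less of its RNA per cell cannot be told apart. The comparisons share libraries, so their values are set side by side and not counted as separate support for one another.

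**Figure D2:**
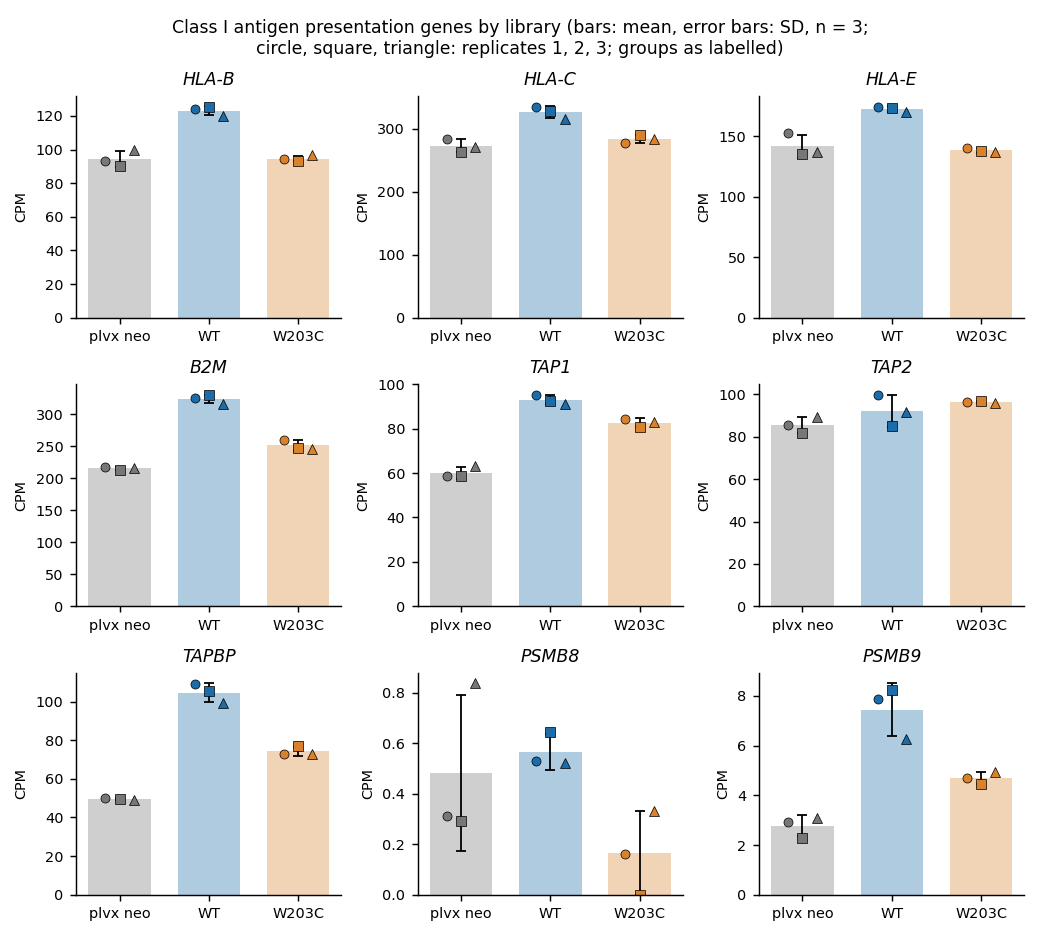
Counts scaled to 1 M per library (CPM, linear axis from 0) of each gene in each library. Bars are means and error bars SD of 3 libraries, and circles, squares and triangles are replicates 1, 2 and 3. Except for TAP2 and PSMB8, the STBD1 WT libraries lie above all plvx neo and all STBD1 W203C libraries. How many of all genes were separated in this way was not counted.

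The heavy chains bind the peptide and give the molecule its identity, HLA-B and HLA-C as classical molecules recognised by T cells and by killer-cell receptors, HLA-E as a ligand of the NKG2A receptor of natural killer cells. HLA-B was at 93.1, 90.3 and 99.8 CPM (counts scaled to 1 M per library by TMM) in plvx neo. The values were 124, 125 and 120.05 CPM with STBD1 WT and 94.2, 93.2 and 96.6 CPM with STBD1 W203C. The STBD1 WT libraries were above all others, and the other groups overlapped. HLA-B was higher by 0.39 ± 0.04 on the log2 scale (± SE) in STBD1 WT vs plvx neo (adjusted p = 2.02e-06, edgeR). It was lower in STBD1 W203C vs STBD1 WT (log2 fold change -0.38 ± 0.04, adjusted p = 7.03e-07, edgeR). It did not pass in STBD1 W203C vs plvx neo, where its 95% interval ran from -0.09 to 0.10. On TPM with limma-trend the call between the constructs was lost (log2 fold change -0.31, adjusted p = 0.0597).

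HLA-C was at 285, 264 and 271 CPM in plvx neo. It read 335, 328 and 317 CPM with STBD1 WT and 278, 290.1 and 283 CPM with STBD1 W203C. Again only the STBD1 WT libraries stood clear, with log2 fold changes of 0.26 ± 0.04 against plvx neo (adjusted p = 3.82e-05, edgeR) and -0.20 ± 0.04 for STBD1 W203C against STBD1 WT (adjusted p = 0.000258, edgeR). The interval of STBD1 W203C vs plvx neo ran from -0.02 to 0.13 (adjusted p = 0.482, edgeR).

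HLA-E was at 153, 135 and 137 CPM in plvx neo. Counts stood at 174, 173 and 170.2 CPM with STBD1 WT and 141, 138 and 137 CPM with STBD1 W203C. The first plvx neo library was above the other 5 libraries of plvx neo and STBD1 W203C, yet below those of STBD1 WT. HLA-E was higher in STBD1 WT than in plvx neo (log2 fold change 0.29 ± 0.04, adjusted p = 6.46e-05, edgeR) and lower in STBD1 W203C than in STBD1 WT (-0.32 ± 0.04, adjusted p = 2.11e-06, edgeR). The interval of STBD1 W203C vs plvx neo ran from -0.13 to 0.06. The proportions among the heavy chains overlapped between the groups. HLA-B made up 49.4% ± 2.09, 52.2% ± 2.31 and 50.3% ± 2.55 of the summed TPM of the 3 heavy chains in plvx neo, STBD1 WT and STBD1 W203C. The shares of HLA-C were 38.1% ± 1.29, 35.8% ± 1.78 and 37.8% ± 1.99, and those of HLA-E 12.5% ± 0.81, 12.0% ± 0.53 and 11.8% ± 0.61 (SD, n = 3). These shares rest on the transcript lengths that RSEM assigned, only 516 to 594 bases for HLA-B. On counts HLA-B was the lowest of the 3 in every library. The class I heavy chain genes are close copies of each other, and how the read pairs were split among them is uncertain. When HLA-B, HLA-C and HLA-E were summed with HLA-F, HLA-G, HLA-H, HLA-J, HLA-K, HLA-L, HLA-V and HLA-W to 1 feature before the fit, the sum was higher by 0.30 in STBD1 WT vs plvx neo and lower in STBD1 W203C vs STBD1 WT (log2 fold change -0.28), with both calls kept, and the value of STBD1 W203C vs plvx neo was 0.02.

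B2M, the light chain that every class I molecule needs to reach the surface, was at 217, 213 and 216 CPM in plvx neo. The level was 326, 329 and 317 CPM with STBD1 WT and 260.5, 248 and 245 CPM with STBD1 W203C. The 3 groups did not overlap. STBD1 WT exceeded plvx neo by 0.59 ± 0.04 on the log2 scale (adjusted p = 2.29e-10, edgeR), and STBD1 W203C was below STBD1 WT (-0.37 ± 0.04, adjusted p = 2.92e-07) and above plvx neo (0.22 ± 0.04, adjusted p = 0.000457). Relative to the summed TPM of HLA-B, HLA-C and HLA-E, B2M stood at 0.936 ± 0.037 for plvx neo, 1.10 ± 0.07 with STBD1 WT and 1.03 ± 0.06 for STBD1 W203C (SD, n = 3). That sum rests on the same assigned lengths. The ratio did not overlap between STBD1 WT and plvx neo, where the exact two-sided permutation p was 0.1, the smallest that 3 against 3 libraries allow, or 0.343 after adjustment over 24 ratio tests.

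TAP1 and TAP2 form the transporter that carries peptides from the cytosol into the endoplasmic reticulum, and their products work as a heterodimer. TAP1 was at 58.8, 58.5 and 63.2 CPM in plvx neo. It came to 95.3, 92.6 and 91.1 CPM with STBD1 WT and 84.5, 80.5 and 83.2 CPM with STBD1 W203C, and no 2 groups overlapped. Its log2 fold change was 0.63 ± 0.05 in STBD1 WT vs plvx neo (adjusted p = 5.54e-09, edgeR), -0.17 ± 0.04 in STBD1 W203C vs STBD1 WT (adjusted p = 0.00569) and 0.46 ± 0.05 in STBD1 W203C vs plvx neo (adjusted p = 1.22e-06). The difference between the constructs is the smallest called among the 7 genes, and on TPM with limma-trend it did not pass (log2 fold change -0.14, adjusted p = 0.124).

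TAP2 behaved otherwise. It was at 85.3, 81.8 and 89.4 CPM in plvx neo. Values reached 99.9, 84.9 and 91.8 CPM with STBD1 WT and 96.6, 97.0 and 96.0 CPM with STBD1 W203C. In CPM the STBD1 WT libraries thus overlapped both other groups. In TPM, TAP2 was at 39.1 to 41.4 with STBD1 WT, above the 33.1 to 37.5 of STBD1 W203C. The TPM of plvx neo, 30.7 to 43.1, overlapped both. Its log2 fold change was 0.11 ± 0.05 in STBD1 WT vs plvx neo (adjusted p = 0.148, edgeR) and 0.07 ± 0.05 in STBD1 W203C vs STBD1 WT (adjusted p = 0.319, edgeR), with intervals of -0.0041 to 0.22 and -0.03 to 0.17. STBD1 W203C exceeded plvx neo by 0.17 ± 0.05 (adjusted p = 0.0221, edgeR), a call that was lost without any one of plvx neo replicate 1, plvx neo replicate 2, STBD1 W203C replicate 1 or STBD1 W203C replicate 2 (adjusted p = 0.0501 to 0.0881) and that turned direction on TPM (-0.03). Without STBD1 WT replicate 2, TAP2 passed in STBD1 WT vs plvx neo (0.17, adjusted p = 0.043), and without STBD1 WT replicate 1 in STBD1 W203C vs STBD1 WT (0.14, adjusted p = 0.0472). The mean transcript length assigned to TAP2 ranged from 2254 to 3374 bases between libraries, and its exons overlap those of a read-through gene on the same strand (ENSG00000250264, up to 7.72 TPM). Summed with that gene, an alternative chosen after seeing the data, TAP2 was higher in STBD1 WT than in plvx neo (log2 fold change 0.20, adjusted p = 0.00197, edgeR). The level of TAP1 relative to TAP2 in TPM was 0.733 ± 0.131 for plvx neo, 0.977 ± 0.027 with STBD1 WT and 1.02 ± 0.10 for STBD1 W203C (SD, n = 3), with no overlap between plvx neo and either construct (exact permutation p = 0.1 each, the smallest possible).

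Tapasin bridges the TAP transporter and empty heavy chains and helps to select well-fitting peptides. TAPBP was at 50.3, 49.4 and 49.2 CPM in plvx neo. It stood at 109, 105 and 99.2 CPM with STBD1 WT and 73.0, 76.9 and 72.6 CPM with STBD1 W203C. The 3 groups were well apart, with STBD1 W203C between the others. STBD1 WT exceeded plvx neo 2.11-fold (log2 fold change 1.08 ± 0.05, adjusted p = 2.15e-12, edgeR), a rise larger than that of all but 0.942% of the genes tested. STBD1 W203C was below STBD1 WT by a log2 fold change of -0.49 ± 0.05 (adjusted p = 1.12e-07) and above plvx neo by 0.58 ± 0.05 (adjusted p = 3.92e-08).

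PSMB9 and PSMB8 encode inducible catalytic subunits that replace PSMB6 and PSMB5 in the immunoproteasome and shift its cuts towards peptides that fit class I grooves. PSMB9 was at 2.93, 2.29 and 3.09 CPM in plvx neo. Levels were 7.87, 8.23 and 6.24 CPM with STBD1 WT and 4.67, 4.45 and 4.95 CPM with STBD1 W203C, which is 47 to 191 expected counts per library. As for TAPBP, the groups did not overlap and STBD1 W203C lay between. PSMB9 had the largest fold of the set, 2.71-fold higher in STBD1 WT than in plvx neo (log2 fold change 1.44 ± 0.17, adjusted p = 2.84e-06, edgeR). It was lower in STBD1 W203C than in STBD1 WT (-0.67 ± 0.15, adjusted p = 0.0017) and higher in STBD1 W203C than in plvx neo (0.76 ± 0.19, adjusted p = 0.0135). This last call was lost without plvx neo replicate 2 (0.64, adjusted p = 0.0662, edgeR). Exons of PSMB9 overlap those of PSMB8 on the opposite strand, and reads there could not be kept apart if counting ignored strand. They also overlap exons of PSMB8-AS1 on the same strand, which reached at most 0.78 TPM. The spans of PSMB9 and TAP1 overlap, but their exons do not.

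PSMB8 had 6, 6 and 16 expected counts for plvx neo, 9.35, 14.6 and 9 with STBD1 WT and 3, 0 and 6 for STBD1 W203C, where the count of 0 allows up to 0.173 CPM. The counts of STBD1 W203C all lay below those of STBD1 WT, while plvx neo overlapped both. The gene passed the filter on low counts, and so had an edgeR test, only in STBD1 WT vs plvx neo, where the log2 fold change was 0.26 with a 95% interval of -0.73 to 1.24, wide enough to hold the rises of the other genes, HLA-B, TAPBP and TAP1 among them, though not that of PSMB9. A difference within that interval could not be told from 0 at this depth.

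**Figure D3:**
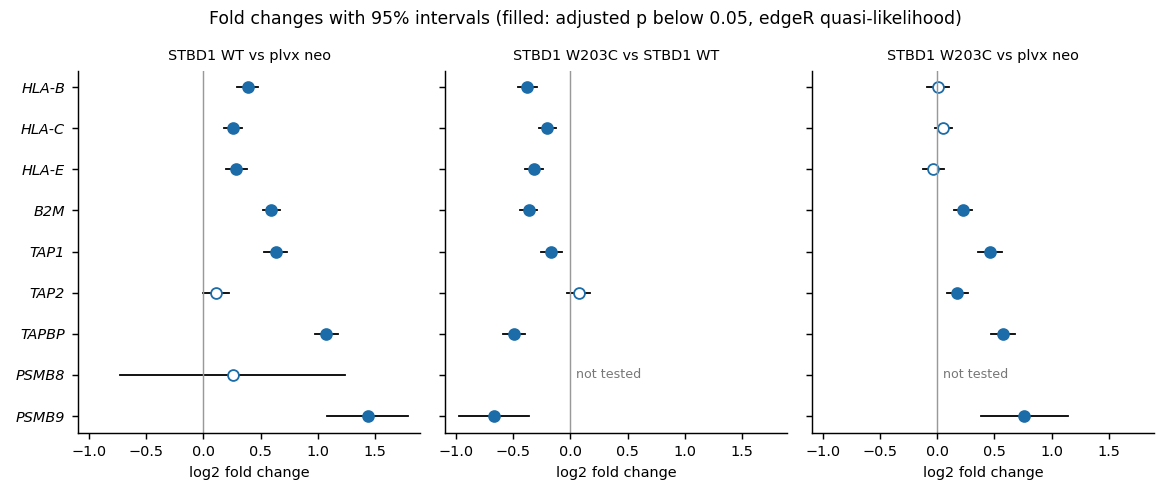
Log2 fold change of each gene in the 3 comparisons, with its 95% interval as a line and filled points at an adjusted p below 0.05 (edgeR quasi-likelihood, 3 libraries a group). In STBD1 WT vs plvx neo the filled points run from 0.26 (HLA-C) to 1.44 (PSMB9), and in STBD1 W203C vs plvx neo the intervals of the 3 heavy chains include 0.

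The inducible subunits were compared with the constitutive subunits they replace, per length. PSMB9 stood at 0.016 ± 0.00199 of PSMB6 for plvx neo, 0.0481 ± 0.00703 with STBD1 WT and 0.0267 ± 0.00112 for STBD1 W203C (SD, n = 3), with no overlap between any groups (exact permutation p = 0.1 in each comparison, the smallest possible, and 0.343 after Benjamini-Hochberg adjustment over the ratio tests). PSMB8 stood at 0.00196, 0.00283 and 0.000722 of PSMB5 in the same order, on few counts. That ratio did not overlap between the constructs (exact permutation p = 0.1, the smallest possible, and 0.343 adjusted), and plvx neo overlapped both. The third inducible subunit, PSMB10, was at 0.222 ± 0.00679, 0.237 ± 0.0179 and 0.227 ± 0.0108 of PSMB7, with overlapping groups. PSMB10 itself had a log2 fold change of -0.02 ± 0.08 in STBD1 WT vs plvx neo (adjusted p = 0.905, edgeR). In all groups the transcripts of PSMB5, PSMB6 and PSMB7 thus exceeded those of the inducible subunits.

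The other 20S subunits were read beside PSMB9. The counts of this and the later lists stand beside the shares of all genes tested. These were 13.9% higher and 13.9% lower in STBD1 WT vs plvx neo, and 14.5% and 13.4% between the constructs. In STBD1 W203C vs plvx neo they were 3.03% and 2.67%. Of 14 genes of the list, which holds the constitutive catalytic subunits and the alpha and beta ring, 0 were higher and 10 lower in STBD1 WT vs plvx neo (median log2 fold change -0.14). Between the constructs 11 were higher and 0 lower (median 0.14), and 0 of 14 were called in STBD1 W203C vs plvx neo, where the values ran from -0.10 to 0.11. The largest falls in STBD1 WT were those of PSMB1 (-0.19 ± 0.04, adjusted p = 0.000812, edgeR), PSMA5 (-0.18 ± 0.04) and PSMA2 (-0.18 ± 0.04). The largest rises in STBD1 W203C vs STBD1 WT were those of PSMB2 (0.25 ± 0.04), PSMA7 (0.22 ± 0.04) and PSMA4 (0.20 ± 0.04). PSMB6 fell by 0.15 in STBD1 WT vs plvx neo and rose by 0.17 in STBD1 W203C vs STBD1 WT, PSMB7 fell by 0.12 in the first, and PSMB5 rose by 0.14 in the second. Of the 9 genes for PSMB10, proteasome activators and assembly factors, 2 were higher and 4 lower in STBD1 WT vs plvx neo. Those higher were PSME1 and PSME2, the subunits of the interferon-inducible PA28 activator, by 0.56 ± 0.05 (adjusted p = 5.26e-08) and 0.28 ± 0.05 (adjusted p = 0.000411). The largest fall was that of the assembly chaperone PSMG1 (-0.31 ± 0.06, adjusted p = 0.00032, edgeR). Between the constructs 4 were higher, led by PSMG1 (0.35 ± 0.06) and PSME3 (0.26 ± 0.04), and 1 lower, PSME1 (-0.36 ± 0.05). Against plvx neo 2 were higher in STBD1 W203C, PSME2 (0.21 ± 0.05) and PSME1 (0.20 ± 0.05).

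Of the 9 tested genes that trim and load peptides or survey folding in the endoplasmic reticulum, 2 were higher and 3 lower in STBD1 WT vs plvx neo. The aminopeptidases ERAP2 and ERAP1, which trim peptides to the length that class I grooves hold, were higher by 1.28 ± 0.24 (adjusted p = 0.000494, edgeR) and 0.69 ± 0.12 (adjusted p = 0.000237), at 1.05 and 3.45 TPM in STBD1 WT. The chaperones HSPA5 (-0.29 ± 0.03, adjusted p = 1.72e-06), PDIA3 (-0.13 ± 0.03) and CALR (-0.10 ± 0.04) were lower. Between the constructs 6 were higher and 0 lower in STBD1 W203C, led by the translocon subunit SEC61A1 (0.27 ± 0.04), HSPA5 (0.26 ± 0.03) and CANX (0.20 ± 0.04). Against plvx neo 3 were higher, ERAP2 (1.09 ± 0.27), SEC61A1 (0.20 ± 0.04) and CANX (0.12 ± 0.03). The chaperones of this list also serve other proteins of the secretory pathway.

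Of the 5 tested class I-like molecules, 3 were higher in STBD1 WT vs plvx neo, the non-classical heavy chain HLA-F (0.62 ± 0.11, adjusted p = 0.000318, edgeR), MR1, which presents vitamin B metabolites to T cells (0.74 ± 0.12, adjusted p = 0.000131), and PROCR (0.22 ± 0.06, adjusted p = 0.00464), the endothelial protein C receptor, which does not present peptides. All 3 were lower in STBD1 W203C vs STBD1 WT, with log2 fold changes of -0.58 ± 0.10, -0.48 ± 0.11 and -0.19 ± 0.06, and 1 gene, HFE, was higher in STBD1 W203C vs plvx neo (0.43 ± 0.08, adjusted p = 0.00215). Among the NKG2D ligands, stress-induced class I-like proteins seen by natural killer cells, 1 of 8 was higher in STBD1 WT vs plvx neo (RAET1L, 1.20 ± 0.27, adjusted p = 0.00241). Of those tested between the constructs, 1 of 7 was lower in STBD1 W203C vs STBD1 WT (MICA, -0.22 ± 0.07, adjusted p = 0.016) and 0 of 7 were called in STBD1 W203C vs plvx neo. These counts of NKG2D ligands are near the shares of all genes tested, 13.9% higher in the first comparison and 13.4% lower in the second. Of 3 tested class II genes, whose promoters share elements with class I, HLA-DRA was higher in STBD1 WT vs plvx neo (1.29 ± 0.34, adjusted p = 0.00684), at 1.54 TPM against 0.623 TPM, and HLA-DRA (-1.20 ± 0.36) and HLA-DMA (-0.59 ± 0.21) were lower in STBD1 W203C vs STBD1 WT.

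Among 19 transcriptional regulators of class I genes, 8 were higher and 1 lower in STBD1 WT vs plvx neo. Between the constructs 1 was higher and 6 lower, and 4 were higher and 0 lower in STBD1 W203C vs plvx neo. The largest rises were those of the NF-kB subunits RELB (2.29 ± 0.08, adjusted p = 7.73e-14, edgeR) and NFKB2 (1.38 ± 0.05, adjusted p = 1.89e-14) in STBD1 WT vs plvx neo, followed by the interferon regulatory factor IRF1 (0.43 ± 0.09, adjusted p = 0.000865). NLRC5, the class I transactivator, was higher by 0.33 ± 0.10 (adjusted p = 0.0154) and RELA by 0.23 ± 0.05 (adjusted p = 0.000537). Between the constructs NFKB2 (-0.52 ± 0.04), IRF9 (-0.49 ± 0.14) and RELB (-0.35 ± 0.06) had the largest falls and RELA was lower (-0.14 ± 0.05). NLRC5 (-0.12 ± 0.11) and IRF1 (-0.11 ± 0.08) did not pass. Against plvx neo RELB (1.93 ± 0.09), NFKB2 (0.85 ± 0.04) and NFKB1 (0.47 ± 0.05) were higher, as was IRF1 (0.32 ± 0.08, adjusted p = 0.0188). NLRC5 at 0.21 ± 0.12 and RELA at 0.09 ± 0.05 did not pass. NFKB1 was also higher in STBD1 WT vs plvx neo (0.35 ± 0.05, adjusted p = 5.46e-05, edgeR). Between the constructs it did not pass and was not lower (0.12 ± 0.05, adjusted p = 0.0573, edgeR). EZH2, a repressor of class I genes, was lower in STBD1 WT vs plvx neo (-0.28 ± 0.04, adjusted p = 0.000102) and higher in STBD1 W203C vs STBD1 WT (0.22 ± 0.05).

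Of 9 interferon receptor, kinase and feedback genes, 4 were higher in STBD1 WT vs plvx neo, the feedback inhibitor SOCS1 (0.60 ± 0.18, adjusted p = 0.0163, edgeR), the receptor chain IFNGR2 (0.36 ± 0.06), the kinase TYK2 (0.23 ± 0.05) and IFNGR1 (0.18 ± 0.06). SOCS1 was lower in STBD1 W203C vs STBD1 WT (-0.66 ± 0.19) and IFNGR2 was higher in STBD1 W203C vs plvx neo (0.22 ± 0.06). Since 8 of the 9 class I genes lie in the major histocompatibility complex, 24 genes of that region listed as outside antigen presentation were read beside them. Of these, 4 were higher and 5 lower in STBD1 WT vs plvx neo, where 13.9% of all genes tested were higher and 13.9% lower. Between the constructs 4 were higher and 3 lower, and 0 of 24 were called in STBD1 W203C vs plvx neo, with medians of 0.03, 0.02 and 0.04. The largest changes in the first were those of IER3 (0.40 ± 0.04), RGL2 (0.25 ± 0.05) and TUBB (-0.22 ± 0.04), and in the second IER3 (-0.29 ± 0.04), TUBB (0.28 ± 0.04) and ABCF1 (0.20 ± 0.04), with RGL2 at -0.20 ± 0.05.

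**Figure D4:**
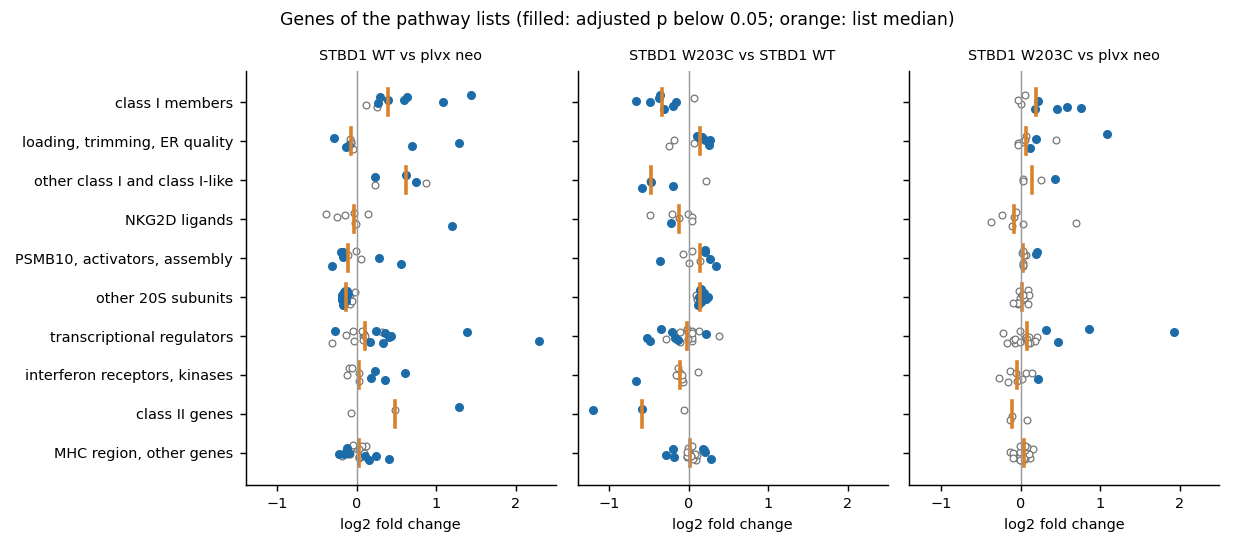
Log2 fold change of the tested genes of each list in the 3 comparisons. Each point is a gene, filled at an adjusted p below 0.05 (edgeR quasi-likelihood), and the orange bar is the median of the list. The median of the class I genes is 0.39 in STBD1 WT vs plvx neo and that of the other 20S subunits is -0.14.

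The genes of the set also resembled each other over the 9 libraries. In log2 CPM, the Pearson correlation of each with the mean of the others was 0.97 for PSMB9, B2M and TAPBP, 0.93 for HLA-C, 0.91 for TAP1, 0.86 for HLA-B, 0.78 for HLA-E and 0.38 for TAP2, with PSMB8 left out for its low counts. The libraries fall into 3 groups, so these values largely restate the order of the group means, and they carry no test. Among 11311 genes, the 6 outside the set with the profile most like its mean were MVP, TYMP, PLCD3, KIFC2, PLSCR3 and LGALS3BP (correlation 0.987 to 0.990). MVP, the major vault protein, was at 41.0, 41.7 and 42.5 TPM for plvx neo, at 62.7, 60.2 and 60.5 TPM with STBD1 WT and at 56.4, 52.9 and 50.7 TPM for STBD1 W203C. TYMP, thymidine phosphorylase, was higher by 0.87 ± 0.06 in STBD1 WT vs plvx neo and LGALS3BP, a secreted glycoprotein, by 0.31 ± 0.04.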

How the data were processed

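RNA-seq of 9 HCT116 libraries was analysed, 3 each of plvx neo, STBD1 WT and STBD1 W203C, grouped and numbered by their sample titles. The libraries were made with the NEBNext Ultra kit, and the authors aligned read pairs to hg38 with STAR 2.7.1a and estimated abundances with RSEM 1.3.1. Whether counting used strand is not given in the sources used here. The deposited tables hold, per gene, the expected count, which need not be whole, and the TPM, which the authors scaled by effective length. Read pairs that fit several genes are divided by RSEM, so levels of near-identical genes depend on that division.

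Expected counts were rounded. For each comparison the 6 libraries were fitted without a block using filterByExpr, TMM and the two-sided quasi-likelihood F-test of edgeR 4.0.16 in R 4.3.3, with Benjamini-Hochberg adjustment over all genes tested. The SE is the log2 fold change divided by the square root of F. Alternatives were DESeq2 1.42.0, its size factors, other filters, all 9 libraries in one fit, a replicate block, limma-trend 3.58.1 on log2(TPM + 1) and log2(TPM + 0.1), leaving out each library, a fold of 1.5, and summed copies or read-through genes. Limma fold changes on this scale understate low genes. The test was checked on simulated counts with known changes. CPM values were TMM-scaled over the 9 libraries.

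TPM ratios were compared by exact permutation of the group labels (smallest p 0.1), with 24 tests adjusted together. Profiles used genes averaging 5 CPM or more, on log2 CPM with a prior count of 2. The rule for genes named takes all 9 genes, NLRC5, IRF1, RELA, PSMB10, PSMB5, PSMB6 and PSMB7, up to 3 changed genes of each list with the largest change in each comparison, and 6 profile neighbours, while CALR, PDIA3, EZH2, IFNGR1 and the changes of cell type markers were added after their values were seen. The genes of the set and the lists were chosen with earlier results of these data known, and a few listed items are not reported here. Positions are from GENCODE 44 on hg38. Depth was 16.9 to 23.3 M (mega) counts per library, and replicate libraries differed by a chi-square of 2.12 to 3.87 per gene, where sampling noise alone gives about 1, so none was counted as a repeat.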

Additional observations from a re-analysis of the deposited data

How the results depend on the processing

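The number of the 9 genes changed held within 1.5 times under DESeq2, other size factors, other filters, one fit of all libraries, the replicate block, both limma-trend fits and the summed features. Requiring a fold of 1.5 left 4, 1 and 1 changed genes in place of 7, 7 and 5, because most changes were smaller. The order is STBD1 WT against plvx neo, STBD1 W203C against STBD1 WT and STBD1 W203C against plvx neo. The share of all genes called at that fold was not counted. In the first comparison 5.19% of all genes tested rose more than B2M, the smallest of the 4 (1.51-fold). Leaving out 1 library gave 7 to 8, 7 to 8 and 3 to 5 changed genes, and the 3 arose without plvx neo replicate 2. With the replicate block the numbers were 7, 7 and 5 and no call of a gene of the set changed. Same-numbered libraries deviated together little (correlations -0.0124 to 0.0677, with no test), which does not settle whether the numbers pair them. Over all genes the block moved the changed genes from 4254 to 4400, from 4202 to 3662 and from 859 to 1003.

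Some directions turned, mostly where the main value was near 0. Between the constructs TAP2 moved well past 0 on TPM, from 0.07 on counts. On log2(TPM + 1) and log2(TPM + 0.1), TAP2 was at -0.19 and -0.20 in STBD1 W203C vs STBD1 WT and at -0.0298 and -0.0302 in STBD1 W203C vs plvx neo, where HLA-E was at 0.0333 and 0.0337, and the summed heavy chains stood at 0.0197 where HLA-E alone was below 0. Leaving out 1 library took HLA-B from -0.0263 to 0.0460 and HLA-E from -0.0668 to 0.0241 in STBD1 W203C vs plvx neo, and PSMB8 from -0.0099 to 0.90 in STBD1 WT vs plvx neo. The cause was not tested. Over all genes, limma-trend called 1701 to 1703, 1779 to 1791 and 118 to 122 genes, and STBD1 W203C vs plvx neo had 459 changed genes without plvx neo replicate 3, 501 without STBD1 W203C replicate 1 and 543 without STBD1 W203C replicate 2. Low counts limit PSMB8 and, less so, PSMB9.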
